A study of Homo sapiens with 8 samples.

Results

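Chemokine ligand and chemokine receptor genes were examined in 8 RNA sequencing libraries of a human acute myeloid leukaemia line labelled THP1. Members were all genes with a symbol of the CCL, CXCL, CX3CL, XCL, CCR, CXCR, CX3CR, XCR or ACKR series, together with CCRL2, that had any count, without antisense or pseudogene names. This rule gave 53 genes, 30 ligands and 23 receptors, of 34618 genes in the deposited table. 1 antisense name was left out, and CCL11, CCL27 and XCL2 had 0 counts in all 8 libraries, which allowed at most 0.257 to 0.273 CPM (counts scaled to library size) per library when 3 counts are taken as the floor. CCL3, CCL4, CCL5, CCL14, CCL15, CCL15-CCL14, CCL16, CCL18, CCL23, CCL3L3 and CCL4L2 were not analysed here. Their current gene IDs were absent from the authors' table, and older IDs were not searched. Ligand rankings and shares below therefore leave these genes out, whatever their level in the cells.

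The 4 MOCK libraries came from cells carrying an empty vector. The 4 RRM2_OE libraries came from cells carrying the construct labelled iRxI/AxA mutant, and RRM2 encodes the small subunit of ribonucleotide reductase. Doxycycline (2 µg/mL) was given to MOCK and RRM2_OE alike. No unmutated RRM2 construct was among the 8 libraries, and whether replicates of 1 group were separate cultures is not stated, so p-values measure the spread between these libraries, which may be technical. RRM2 itself lay at 116 to 128 CPM in MOCK and at 215 to 236 CPM in RRM2_OE, which matched the labels. Total counts ran from 10994255 to 11686152 per library. CDKN2A, a gene commonly described as deleted in THP1 cells, was present at 44.6 to 56.3 CPM in all 8 libraries, and of 10 monocyte markers 9 passed the low count filter while CD68 stayed at 0.265 to 1.13 CPM. In bulk RNA, a change in the number of cells that make a transcript and a change in transcript per cell cannot be told apart.

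Chemokines are small secreted proteins that guide the movement of leukocytes, and they are grouped by the spacing of their first cysteines into CXC, CC, XC and CX3C families. CXC ligands with a glutamate-leucine-arginine (ELR) motif, among them CXCL8 (interleukin 8), attract neutrophils through CXCR1 and CXCR2, whereas CC ligands attract mainly monocytes, eosinophils, dendritic cells and lymphocytes. The receptors are G protein-coupled and signal through inhibitory G proteins, while atypical receptors bind ligands without such signalling. Monocytic cells are a known source of CXCL8 and CCL2, whose genes are classical targets of the transcription factor NF-kB.

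Of the 10 CXC ligand genes on chromosome 4, 8 shared a stretch of promoter letters that CXCL9 and CXCL13 lacked in their windows. The sequences of 6 of the 8 are shown here. They are the 5 tested ligands of that chromosome, each higher in all 4 RRM2_OE libraries than in any MOCK library, and CXCL10, which did not pass the low count filter. CXCL6 and CXCL11 hold the same letters and are not printed. The genes shown were chosen by their expression, so the display tests no link between the letters and a rise. The sequences are the 150 bases before the RefSeq transcript start (200 for CXCL10), 5′ to 3′ on the gene's strand, with GRCh38.p14 coordinates. Capitals mark matches to GGAATTTCC or GGGNNTTCC (letters of the NF-kB type) or to TGACTCA (letters of the AP-1 type), each searched on both strands.
CXCL8 (chr4:73740419-73740568, + strand): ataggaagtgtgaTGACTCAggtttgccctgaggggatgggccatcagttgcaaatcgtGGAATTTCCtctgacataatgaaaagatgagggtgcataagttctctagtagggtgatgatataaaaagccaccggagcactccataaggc
CXCL5 (chr4:73998678-73998827, - strand): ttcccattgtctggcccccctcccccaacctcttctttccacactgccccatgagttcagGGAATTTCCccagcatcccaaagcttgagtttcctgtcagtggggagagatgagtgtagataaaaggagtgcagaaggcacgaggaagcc
CXCL1 (chr4:73869243-73869392, + strand): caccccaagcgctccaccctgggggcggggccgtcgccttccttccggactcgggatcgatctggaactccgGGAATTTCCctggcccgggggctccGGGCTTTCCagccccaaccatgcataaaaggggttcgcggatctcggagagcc
CXCL2 (chr4:74099196-74099345, - strand): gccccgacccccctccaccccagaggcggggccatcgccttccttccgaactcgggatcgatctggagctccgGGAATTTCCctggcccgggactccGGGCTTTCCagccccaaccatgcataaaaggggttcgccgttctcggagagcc
CXCL3 (chr4:74038690-74038839, - strand): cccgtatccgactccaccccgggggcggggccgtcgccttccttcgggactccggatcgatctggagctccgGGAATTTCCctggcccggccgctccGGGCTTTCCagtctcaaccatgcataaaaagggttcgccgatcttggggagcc
CXCL10 (chr4:76023498-76023697, - strand): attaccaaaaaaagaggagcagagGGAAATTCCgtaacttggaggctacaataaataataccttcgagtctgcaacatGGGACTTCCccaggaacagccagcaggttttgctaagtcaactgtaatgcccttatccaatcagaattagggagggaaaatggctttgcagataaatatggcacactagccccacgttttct

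Windows of 300 bases, from 250 before to 50 after the start, were present for 39 of the 53 members. Members without a window included ACKR1, ACKR2, ACKR3, ACKR4, CCL17, CCL2, CCL21, CCR10, CCR7, CCR8, CX3CL1, CXCL16 and XCL1. GGAATTTCC occurred in 0.461% of 35116 windows of all genes (153 of 27305 genes) and in 8 of the 39 members, namely CXCL1, CXCL2, CXCL3, CXCL5, CXCL6, CXCL8, CXCL10 and CXCL11, all of them on chromosome 4. Among tested members with a window, it occurred in 3 of 11 called higher and in 2 of 11 not called. Counting bases from the transcript start, with the last base before it as -1, the match lay between -91 and -67 in 7 of these 8 genes and at -176 to -168 in CXCL10. The looser GGGNNTTCC occurred in 6.58% of all windows and in CCL20, CXCL1, CXCL2, CXCL3 and CXCL10, with 1 of 11 called higher and 2 of 11 not called. TGACTCA occurred in 4.95% of all windows and in CCL24, CCR2, CXCL8, CXCL11, CXCL14 and CXCL17. The 150 bases of CXCL1 were 88.7% identical to those of CXCL2 and 86.0% identical to those of CXCL3, those of CXCL5 were 89.4% identical to those of CXCL6, and those of CXCL8 were 37.2 to 44.3% identical to the other 5 ELR genes. A match is a string of letters and not a measured binding site.

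**Figure D1:**
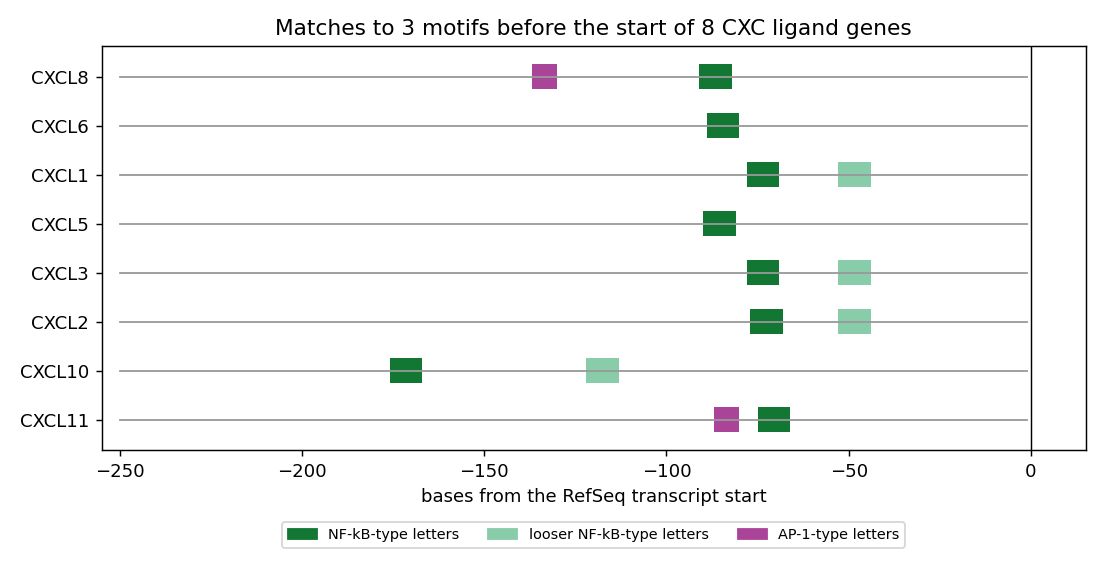
Positions of the 3 motifs before the RefSeq transcript start of 8 CXC ligand genes, in bases from the start (vertical line at 0); grey lines span the 250 bases searched before the start. The dark green GGAATTTCC match lies between -91 and -67 in all but CXCL10.

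Levels between genes were compared by RPKM, read counts corrected for library size and gene length. Among the ligands analysed, CXCL8 had the highest level, 273 ± 9.57 RPKM in MOCK (SD, n = 4). CCL2 (monocyte chemoattractant protein 1) followed at 231 ± 29.5, and the ranges of the 2 genes overlapped. CCL22 and CCL1, ligands of CCR4 and CCR8, followed at 140 ± 16.9 and 52.6 ± 4.80 RPKM, and each range lay apart from the next. CCL17 (31.0 ± 0.751), CCL24 (18.4 ± 1.92), CXCL16 (9.09 ± 0.702), CCL7 (7.03 ± 0.906) and CCL28 (4.72 ± 0.320) came next, again with ranges that did not overlap between neighbours. Below these, the ranges of CXCL2, CCL19 and CXCL3 overlapped in turn. CXCL1, CXCL5 and CCL8 lay at or below 1.19 RPKM in every MOCK library.

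The sum of all 30 ligands was 729 to 837 RPKM in MOCK and 972 to 1088 RPKM in RRM2_OE, and CXCL8, CCL2 and CCL22 together made up 81.5 to 83.8% of it in MOCK and 79.7 to 82.1% in RRM2_OE. CXCL8 alone made up 97.5 to 97.7% of the summed RPKM of the 6 ELR ligands with a CXCL symbol (CXCL1, CXCL2, CXCL3, CXCL5, CXCL6 and CXCL8, without PPBP, whose symbol is outside the rule) in MOCK and 96.7 to 97.6% in RRM2_OE.

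Among receptors, CXCR4 (the receptor of CXCL12, which retains blood progenitors in marrow) was highest at 118 ± 12.1 RPKM in MOCK. CCR7, which guides dendritic cells and T cells to lymph nodes, followed at 43.0 ± 5.44 RPKM, and CCR1 at 28.9 ± 2.79. CCRL2 (17.5 ± 0.986) and CXCR3 (11.4 ± 1.47) were next, each apart from its neighbours. The ranges of CXCR2 (3.72 ± 0.417) and CXCR5 (3.50 ± 0.0703) overlapped, as did those of CXCR1 (2.36 ± 0.208) and ACKR4 (2.17 ± 0.221), and those of CX3CR1 (0.881 ± 0.0901) and CCR4 (0.806 ± 0.0948). CXCR4 made up 47.5 to 50.2% of the summed receptor RPKM in MOCK and 49.4 to 53.5% in RRM2_OE.

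**Figure D2:**
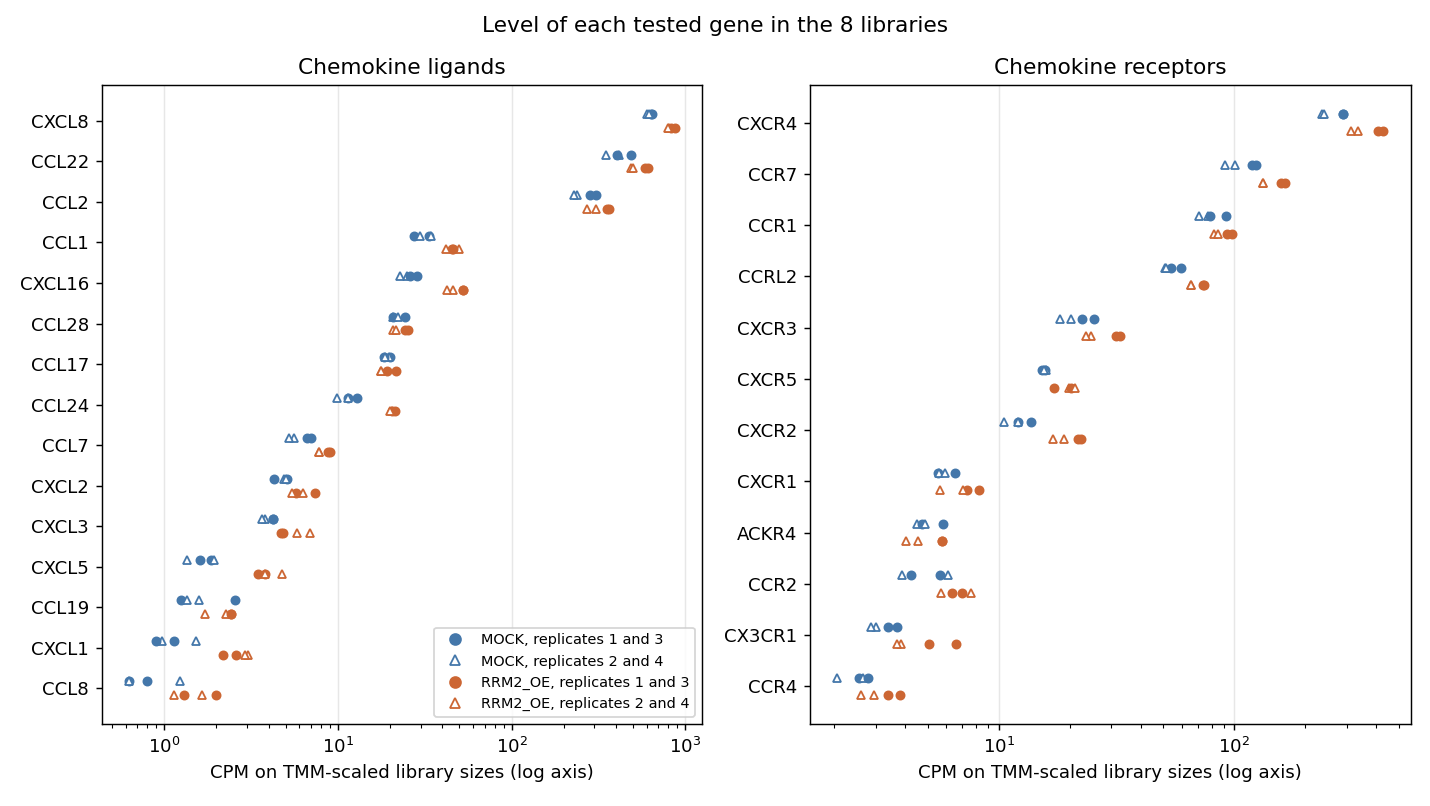
CPM of 27 tested genes in each library on a log axis, ligands left and receptors right, ordered by the MOCK mean (blue, MOCK; orange, RRM2_OE; filled circles, replicates 1 and 3; open triangles, replicates 2 and 4). For 16 genes all 4 orange points lie to the right of all 4 blue points, and CCL17, CCL28 and ACKR4 overlap widely.

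Of the 53 members, 28 passed the low count filter and were tested among 15286 genes with edgeR's quasi-likelihood test and Benjamini-Hochberg adjustment. Chemokine genes were higher in RRM2_OE in 13 cases (8 of 15 ligands and 5 of 13 receptors), lower in 0, and 15 did not pass the adjusted p of 0.05. Over all genes tested, 7.41% were called higher and 5.42% lower. The count of lower members was also 0 at an unadjusted p of 0.05, with DESeq2 and with limma on log2 RPKM. All 4 RRM2_OE libraries lay above all 4 MOCK libraries in 16 of the 28 members, against 10.5% of all genes tested. The reverse held for 0 members, against 1359 of the 15286 genes tested. The log2 fold change was positive in 27 of 28 members, against 7546 of the 15286 genes tested. Its median was 0.40 (0.44 for ligands and 0.37 for receptors), beside -0.0028 over all genes tested. CCL8 reached the filter's level of 0.876 CPM in 4 RRM2_OE libraries but in 1 MOCK library, so that it passed through the group in which it was higher, while the other 27 reached that level in all 8 libraries.

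Libraries with odd and even replicate numbers differed from each other within both groups. The mean CPM of replicates 1 and 3 was above that of replicates 2 and 4 in 21 of the 28 members in MOCK and in 22 in RRM2_OE. The matching share of all genes tested was not computed, so whether these counts are particular to the members was not tested. The log2 ratio of mean CPM, RRM2_OE over MOCK, had a median of 0.41 in replicates 1 and 3 and of 0.39 in replicates 2 and 4. Over all genes tested these medians were 0.0 and -0.0037. The ratio was positive in 28 and in 25 members, a count not taken over all genes. With replicate number as a block, 22 members were called higher and 0 lower, against 15.1% and 14.0% of all genes tested. These 22 held all 13 of the unblocked fit and 9 more, among them CCL2, CCL8, CCR1, CCR2, CX3CR1, CXCL2, CXCL3 and CXCR3. The same 22 were called with a term for odd and even numbers, and ACKR4, CCL17, CCL19, CCL28, CCR4 and CXCR1 were called in neither fit. What the odd and even numbers stand for is not given in the labels.

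**Figure D3:**
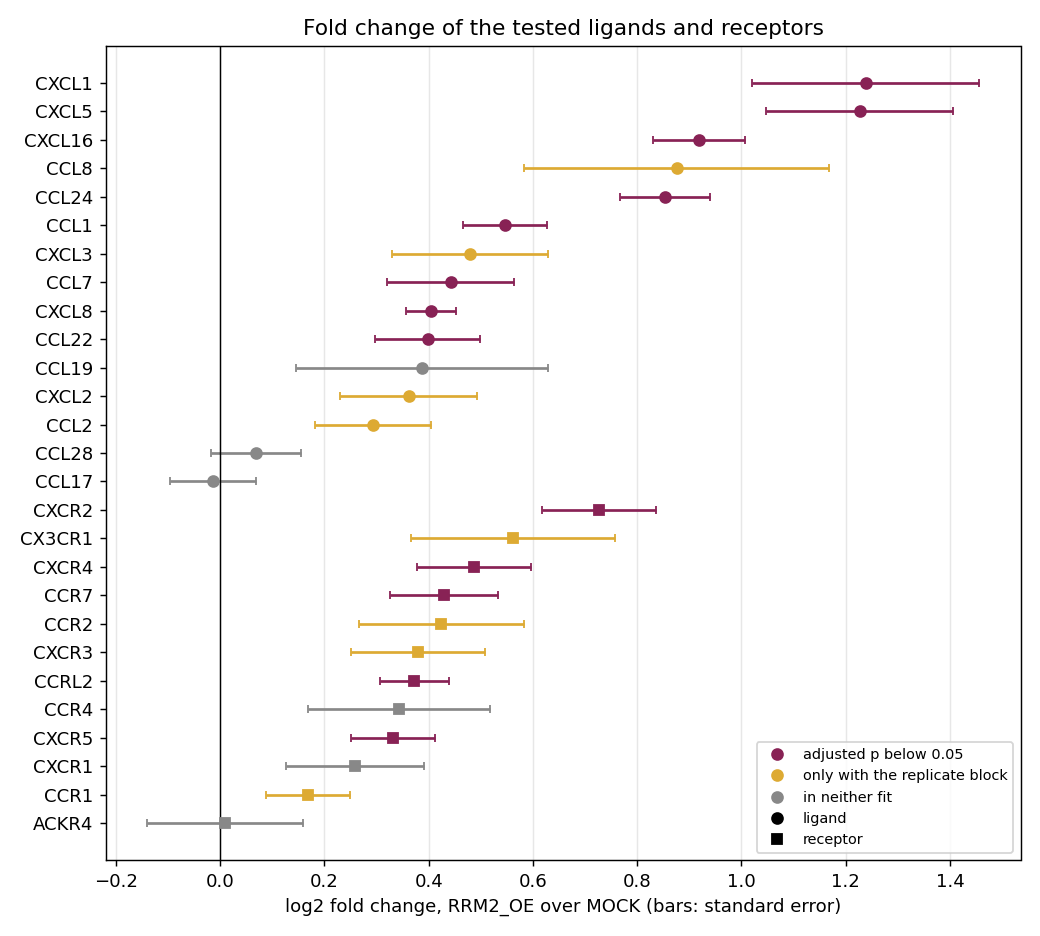
Log2 fold change of RRM2_OE over MOCK with its standard error for 27 tested genes (circles, ligands; squares, receptors; purple, adjusted p below 0.05; yellow, below 0.05 only with the replicate block; grey, in neither fit). CXCL1 and CXCL5 lie farthest to the right, and CCL17 and ACKR4 lie at 0.

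CXCL8, the neutrophil attractant with the highest level of the ligands analysed, rose in every RRM2_OE library. It measured 638, 599, 648 and 618 CPM in MOCK replicates 1 to 4 and 873, 807, 833 and 799 CPM in RRM2_OE replicates 1 to 4. The groups did not overlap, and the spread within each was small beside the gap between them. The mean went from 626 ± 21.6 to 828 ± 33.1 CPM (SD, n = 4), a log2 fold change of 0.40 (SE 0.05, edgeR adjusted p = 1.63e-04). The gene lies at chr4:74606223-74609433 on the plus strand of hg19 in the deposited table, at the low-coordinate end of the CXC ligand cluster.

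CXCL1 and CXCL5, which act on CXCR2 as well, had the largest log2 fold changes of the tested members in the edgeR fit, from low levels. With limma on log2(RPKM + 1), which understates the change of low genes, they were 0.72 for CXCL1 and 0.63 for CXCL5, below CXCL16 at 0.86 and CCL24 at 0.84. CXCL1, at chr4:74735110-74736959 on hg19, measured 1.14, 0.973, 0.896 and 1.52 CPM in MOCK and 2.17, 3.05, 2.60 and 2.94 CPM in RRM2_OE. CXCL5, at chr4:74861359-74864496, measured 1.85, 1.95, 1.61 and 1.35 CPM in MOCK and 3.48, 4.79, 3.81 and 3.80 CPM in RRM2_OE. In neither gene did the groups overlap. The log2 fold change was 1.24 for CXCL1 (SE 0.22, edgeR adjusted p = 0.00265) and 1.23 for CXCL5 (SE 0.18, edgeR adjusted p = 7.4e-04).

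CXCL2 and CXCL3, the close relatives of CXCL1, lay above MOCK in all 4 RRM2_OE libraries but missed the threshold. CXCL2 measured 4.31, 4.87, 5.11 and 5.02 CPM in MOCK and 5.74, 6.27, 7.37 and 5.44 CPM in RRM2_OE (log2 fold change 0.36, edgeR adjusted p = 0.0921, and 0.0396 with the replicate block). CXCL3 measured 4.23, 3.80, 4.21 and 3.68 CPM in MOCK and 4.70, 6.88, 4.85 and 5.79 CPM in RRM2_OE (log2 fold change 0.48, edgeR adjusted p = 0.0532, and 0.0151 with the block). On the log2 scale the CXCL3 groups differed by 0.18 over replicates 1 and 3, and by 0.76 over the other pair of numbers. CXCL1, CXCL2 and CXCL3 have similar sequences, and how reads that fit more than 1 of them were counted is not given in the sources used here, so the split among them is uncertain.

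Chromosome 4 held 10 members, of which 5 passed the filter, all 5 without overlap between the groups and 3 of them called higher. Of all genes tested, 10.5% had every RRM2_OE library above every MOCK library, and 7.41% were called higher. Outside the tested genes, CXCL10, CXCL11 and CXCL6 of the same chromosome had few counts. CXCL10, an interferon-induced ligand of CXCR3, had 6, 4, 4 and 4 counts in MOCK and 16, 8, 12 and 14 counts in RRM2_OE. CXCL11, another CXCR3 ligand, had 2, 3, 2 and 3 counts in MOCK and 4, 8, 7 and 8 in RRM2_OE. Both groups of counts lay apart in each gene. In an edgeR fit without the low count filter, over 26786 genes, CXCL10 had a log2 fold change of 1.41 and an adjusted p of 0.015, and CXCL11 one of 1.35 and 0.124. CXCL6 had 4, 4, 10 and 3 counts in MOCK and 10, 11, 10 and 13 in RRM2_OE, where the groups met at 10 counts. The spans of CXCL10 and CXCL11 overlap the gene ART3 on the opposite strand in the deposited coordinates.

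CXCL16, a ligand made in a membrane-bound and a shed form that binds CXCR6 (chr17:4636821-4643217 on hg19), rose from 25.6 ± 2.39 to 48.4 ± 5.09 CPM. It measured 28.5, 24.9, 26.1 and 22.8 CPM in MOCK and 52.7, 45.7, 52.5 and 42.5 CPM in RRM2_OE. All 4 RRM2_OE libraries were far above MOCK, with replicates 1 and 3 higher in each group. The log2 fold change was 0.92 (SE 0.09, edgeR adjusted p = 3.83e-05), the smallest adjusted p of any member. Its span overlaps MED11 on the other strand, and whether the authors' counting used strand is not stated.

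Among CC ligands, CCL24 (eotaxin 2, which attracts eosinophils through CCR3) and CCL1 (an attractant for CCR8-bearing cells) rose without overlap. CCL24, at chr7:75440983-75452674 on hg19, measured 11.4, 11.4, 12.9 and 9.87 CPM in MOCK and 20.6, 20.6, 21.3 and 19.9 CPM in RRM2_OE. CCL1, at chr17:32687347-32690250, measured 33.6, 34.3, 27.6 and 29.9 CPM in MOCK and 45.4, 50.1, 45.9 and 41.7 CPM in RRM2_OE. The 4 RRM2_OE values of CCL24 lay close together, and those of CCL1 spread more. The log2 fold change was 0.85 for CCL24 (SE 0.09, edgeR adjusted p = 5.74e-05) and 0.55 for CCL1 (SE 0.08, edgeR adjusted p = 7.87e-04). Both genes kept their call when any 1 library was left out.

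CCL22 and CCL7 also rose, with calls that depended on single libraries. CCL22, made by macrophages and dendritic cells and located at chr16:57392684-57400102 on hg19, measured 488, 413, 406 and 350 CPM in MOCK and 584, 490, 610 and 500 CPM in RRM2_OE. The highest MOCK library and the lowest RRM2_OE library nearly met. Its log2 fold change was 0.40 (SE 0.10, edgeR adjusted p = 0.0264), and the call was lost, with an adjusted p of up to 0.0664, when MOCK replicate 2, 3 or 4 or RRM2_OE replicate 1 or 3 was left out, as it was without the low count filter (0.143). CCL7 (monocyte chemoattractant protein 3) measured 7.04, 5.57, 6.63 and 5.20 CPM in MOCK and 8.96, 7.75, 8.75 and 7.77 CPM in RRM2_OE. Its groups did not overlap, and its log2 fold change was 0.44 (SE 0.12, edgeR adjusted p = 0.0325, as high as 0.0899 without MOCK replicate 2 or 4 or RRM2_OE replicate 1 or 3).

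CCL2, the main monocyte attractant acting on CCR2, showed overlapping groups. It measured 307, 240, 285 and 228 CPM in MOCK and 363, 274, 356 and 306 CPM in RRM2_OE. Replicates 1 and 3 were the higher pair in both groups, by 0.34 on the log2 scale in MOCK and 0.31 in RRM2_OE, about as much as the groups differed. Its log2 fold change was 0.29 (SE 0.11, edgeR adjusted p = 0.115, and 4.88e-09 with the replicate block), and it was 0.28 within replicates 1 and 3 and 0.31 within replicates 2 and 4. The span of CCL2 overlaps an unnamed gene on the opposite strand. CCL8, a neighbour that also acts on CCR2, measured 0.792, 1.24, 0.627 and 0.628 CPM in MOCK and 1.30, 1.13, 1.99 and 1.64 CPM in RRM2_OE (log2 fold change 0.88, SE 0.29, edgeR adjusted p = 0.0686, 0.0305 with the block and 0.0404 without MOCK replicate 2).

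CCL17 and CCL28 showed the smallest differences among the ligands. CCL17, the other CCR4 ligand, measured 19.9, 19.6, 18.4 and 18.8 CPM in MOCK and 21.7, 17.7, 19.1 and 17.6 CPM in RRM2_OE (log2 fold change -0.01, SE 0.08, edgeR adjusted p = 0.943). CCL28, a mucosal ligand of CCR10 and CCR3, measured 24.3, 20.7, 20.7 and 22.1 CPM in MOCK and 25.3, 20.7, 24.4 and 21.6 CPM in RRM2_OE (log2 fold change 0.07, SE 0.09, edgeR adjusted p = 0.671). In both the groups overlapped. CCL19, a ligand of CCR7, averaged 1.69 ± 0.595 and 2.21 ± 0.334 CPM (log2 fold change 0.39, SE 0.24, edgeR adjusted p = 0.344, and 0.66 with an adjusted p of 0.0884 without MOCK replicate 1).

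CXCR4, the most abundant receptor transcript (chr2:136871919-136875735 on hg19), rose in RRM2_OE. It measured 289, 236, 289 and 240 CPM in MOCK and 428, 334, 406 and 311 CPM in RRM2_OE. The groups did not overlap, and within each group replicates 1 and 3 were the higher pair. The mean went from 264 ± 29.3 to 370 ± 56.2 CPM, a log2 fold change of 0.49 (SE 0.11, edgeR adjusted p = 0.0154, and 2.03e-14 with the replicate block). Without the low count filter its adjusted p was 0.103. Its ligand gene CXCL12 had 0 or 1 count in each library.

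CCR7, at chr17:38710021-38721724 on hg19, rose and measured 123, 101, 119 and 91.4 CPM in MOCK and 158, 132, 164 and 132 CPM in RRM2_OE. The lowest RRM2_OE library lay above the highest MOCK library, again with replicates 1 and 3 higher. Its log2 fold change was 0.43 (SE 0.10, edgeR adjusted p = 0.021, and as high as 0.0569 when MOCK replicate 2 or RRM2_OE replicate 1 or 3 was left out). Without the low count filter the adjusted p was 0.107. Of its ligands, CCL21 had 0 or 1 count in each library.

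**Figure D4:**
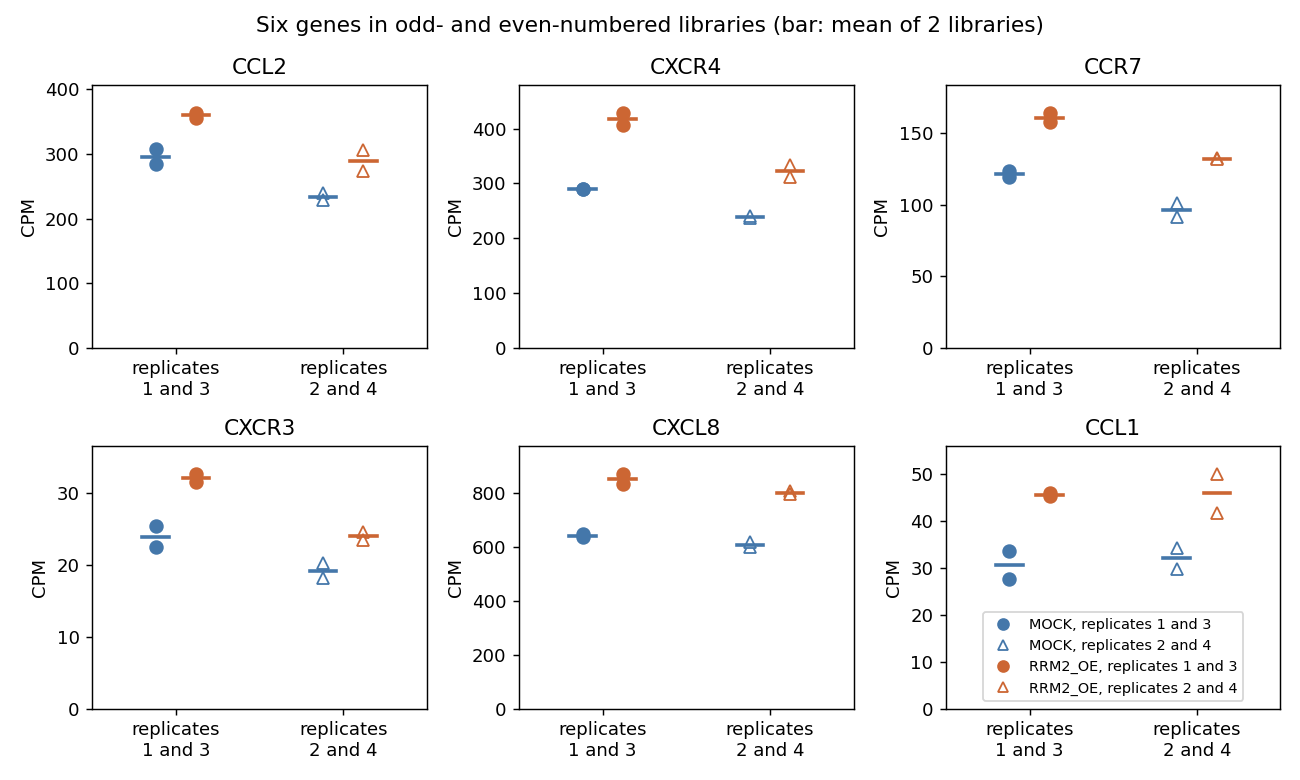
CPM of 6 genes (axes from 0) in MOCK (blue) and RRM2_OE (orange), split by replicates 1 and 3 (filled circles) and replicates 2 and 4 (open triangles), with a bar at the mean of each 2 libraries. In all 6 genes RRM2_OE lies above MOCK within each split, while CCL2 and CXCR3 overlap between the groups when the splits are pooled.

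CXCR2, the receptor shared by the ELR ligands, had the largest rise among receptors. It measured 12.1, 10.5, 13.7 and 12.1 CPM in MOCK and 22.4, 19.0, 21.8 and 16.9 CPM in RRM2_OE, with no overlap (log2 fold change 0.73, SE 0.11, edgeR adjusted p = 8.88e-04). CXCR1, which binds CXCL8 and CXCL6, averaged 5.89 ± 0.462 CPM in MOCK and 7.05 ± 1.08 CPM in RRM2_OE, where the groups overlapped (log2 fold change 0.26, SE 0.13, edgeR adjusted p = 0.236). The 2 receptors are near neighbours of similar sequence on chromosome 2, at 218990012 to 219001976 for CXCR2 and 219027568 to 219031718 for CXCR1 on hg19, so their split is uncertain.

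CCRL2, an atypical receptor that presents the attractant chemerin, and CXCR5, which guides B cells to follicles, rose by less. CCRL2 measured 59.2, 51.0, 53.9 and 51.3 CPM in MOCK and 74.5, 65.6, 73.5 and 65.3 CPM in RRM2_OE (log2 fold change 0.37, SE 0.07, edgeR adjusted p = 0.00287). CXCR5 measured 15.7, 15.9, 15.2 and 15.5 CPM in MOCK and 17.2, 19.9, 20.2 and 21.1 CPM in RRM2_OE (log2 fold change 0.33, SE 0.08, edgeR adjusted p = 0.017). Neither gene's groups overlapped. The CXCR5 call was lost without RRM2_OE replicate 4 (adjusted p = 0.0532), and its span overlaps BCL9L and an unnamed gene on the opposite strand. CXCL13, the ligand of CXCR5, had 0 to 2 counts in each library.

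Among receptors that missed the threshold, CCR1 and CXCR3 were well measured. CCR1, a receptor of several inflammatory CC ligands, measured 92.2, 77.1, 78.6 and 70.6 CPM in MOCK and 92.9, 81.7, 97.8 and 85.5 CPM in RRM2_OE (log2 fold change 0.17, SE 0.08, edgeR adjusted p = 0.206, and 0.00404 with the block). Its groups overlapped, and its span overlaps CCR3 on the opposite strand. CXCR3, the receptor of CXCL9, CXCL10 and CXCL11, measured 25.4, 20.3, 22.5 and 18.1 CPM in MOCK and 31.6, 24.6, 32.7 and 23.4 CPM in RRM2_OE (log2 fold change 0.38, SE 0.13, edgeR adjusted p = 0.0783, and 4.4e-05 with the block). For CXCR3 a MOCK library of the higher pair exceeded both RRM2_OE libraries of the lower pair.

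The remaining tested receptors were low. CX3CR1, the receptor of the membrane-bound ligand fractalkine (CX3CL1), lay at 2.87 to 3.70 CPM in MOCK and at 3.71 to 6.59 CPM in RRM2_OE without overlap (log2 fold change 0.56, SE 0.20, edgeR adjusted p = 0.0815, and 0.00771 with the block). Its log2 fold change was 0.37 without RRM2_OE replicate 3 and 0.29 with limma on log2(RPKM + 1), and its adjusted p was 0.0424 without the low count filter. CCR2, the CCL2 receptor, averaged 4.97 ± 1.07 and 6.66 ± 0.843 CPM (log2 fold change 0.42, SE 0.16, edgeR adjusted p = 0.103, and 0.0289 with the block). CCR4, the receptor of CCL17 and CCL22, averaged 2.51 ± 0.312 and 3.19 ± 0.534 CPM (log2 fold change 0.34, SE 0.17, edgeR adjusted p = 0.234). These 3 genes gave wide errors. ACKR4, a scavenger of CCL19 and CCL21, averaged 4.98 ± 0.572 and 5.01 ± 0.852 CPM (log2 fold change 0.01, SE 0.15, edgeR adjusted p = 0.978), and its span overlaps other genes on the opposite strand.

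Neighbouring genes were compared for unequal change. For each of the 12 pairs of tested members of 1 kind that follow each other on a chromosome within 1 megabase, the log2 ratio of the 2 genes was taken in every library and compared between the groups with an exact two-sided permutation test. In 5 pairs the ratios of the groups did not overlap, each with an exact p = 0.0286, the smallest that 4 against 4 libraries allow, and with an adjusted exact p of 0.0686 over the 12 pairs. So 0 pairs passed 0.05 after adjustment, which 5 pairs at the smallest possible p could not do. The log2 ratio differed between RRM2_OE and MOCK by 0.42 for CCL22 over CCL17, by 0.48 for CXCR2 over CXCR1, by 0.77 for CXCL5 over CXCL3, by -0.86 for CXCL8 over CXCL1 and by -0.16 for CCL2 over CCL7. The ratio of CXCL1 to CXCL5 differed by 0.03 (exact permutation p = 0.943), and by 0.28 when MOCK replicate 4 was left out. That of CXCL3 to CXCL2 differed by 0.11 (exact permutation p = 0.6), and by 0.01 to 0.26 when 1 library was left out.

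Ligands and receptors known to bind each other were often at very different levels, as the plot of ligand and receptor RPKM shows. CCL1 stood at 52.6 ± 4.80 RPKM in MOCK and 77.6 ± 6.05 in RRM2_OE, while its receptor CCR8 had 1 to 5 counts in each library. CCL24 stood at 18.4 ± 1.92 and 33.5 ± 0.696 RPKM, while CCR3 had 4 to 9 counts. CXCL16 stood at 9.09 ± 0.702 and 17.3 ± 1.61 RPKM, while CXCR6 had 4 to 12 counts. The spans of CCR3 and CXCR6 overlap CCR1 and FYCO1 on the opposite strand. Whether the counting used strand is not stated, so the counts of these 2 receptors are uncertain. In the pairs of CCL1, CCL24 and CXCL16 the ligand transcript was present and the receptor count was near the detection limit. The reverse held for CXCR4 with CXCL12 and for CXCR5 with CXCL13. CXCL8 with CXCR2 was a pair in which both transcripts were measured and both rose.

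**Figure D5:**
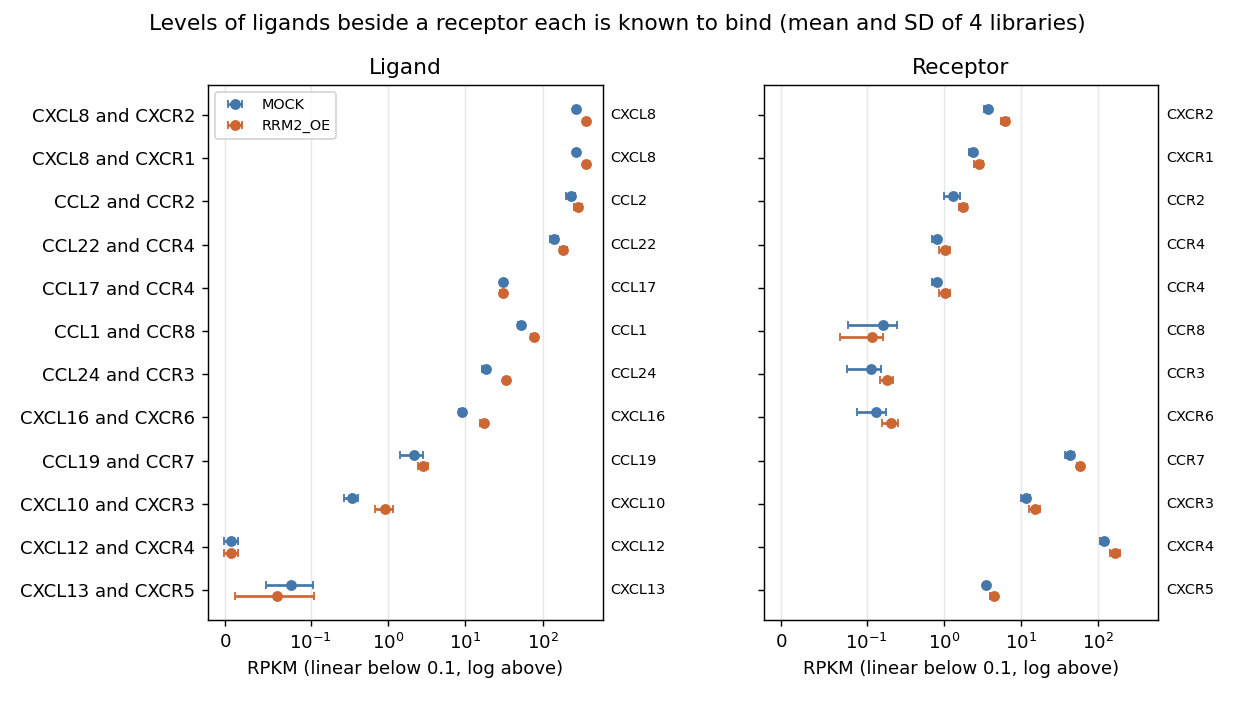
RPKM in 12 ligand and receptor pairs, the ligand left and a receptor it is known to bind right, as mean and SD of 4 libraries, on an axis that is linear below 0.1 and logarithmic above (blue, MOCK; orange, RRM2_OE). CXCL12 and CXCL13 lie near 0 beside CXCR4 at 118 and CXCR5 at 3.50 RPKM in MOCK, and CCR8, CCR3 and CXCR6 lie near 0.1 beside CCL1, CCL24 and CXCL16.

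The 25 members below the filter had 1 to 68 counts in all 8 libraries together, 10 of them fewer than 10, and at most 16 in any library. They were ACKR1, ACKR2, ACKR3, CCL13, CCL20, CCL21, CCL25, CCL26, CCR3, CCR6, CCR8, CCR9, CCR10, CX3CL1, CXCL6, CXCL9, CXCL10, CXCL11, CXCL12, CXCL13, CXCL14, CXCL17, CXCR6, XCL1 and XCR1. All 4 RRM2_OE counts exceeded all 4 MOCK counts in CXCL10, CXCL11 and CX3CL1, and the reverse held for 0 of the 25. The 3 of 25 stand beside 10.5% of all genes tested, and the 0 of 25 beside 1359 of 15286. Both shares leave out genes below the filter. CX3CL1 had 1, 5, 4 and 2 counts in MOCK and 6, 8, 8 and 9 in RRM2_OE (log2 fold change 1.29, edgeR adjusted p = 0.112 without the filter). Differences in the others were not detectable at this depth.

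Genes that carry the receptor signal inside the cell showed no common direction. Of 33 listed genes for receptor signalling and desensitisation, 31 were tested, of which 4 were higher and 1 was lower, beside 7.41% higher and 5.42% lower among all genes tested, and their median log2 fold change was 0.0064. The 4 higher genes were GNAI1, an inhibitory G protein subunit (log2 fold change 0.55, edgeR adjusted p = 0.0303), and RGS2 (0.71, 0.0046), RGS16 (0.53, 7.17e-05) and RGS1 (0.36, 0.012), which speed the shut-off of G proteins. GRK2, a kinase that desensitises receptors, was lower (-0.18, edgeR adjusted p = 0.0258), a call that was lost without MOCK replicate 3, without RRM2_OE replicate 2, 3 or 4, and with limma. RAC2 and RHOA, the most abundant listed genes that missed the threshold, lay at 0.06 (adjusted p = 0.797) and 0.01 (adjusted p = 0.946). With the replicate block 7 genes were higher and 5 lower, beside 15.1% and 14.0% of all genes tested.

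Regulators of NF-kB were higher in 6 of 15 tested genes and lower in 0 (9 and 0 with the replicate block), with a median log2 fold change of 0.19. Among all genes tested 7.41% were higher and 5.42% lower, and with the block 15.1% and 14.0%. NFKBIZ, a nuclear inhibitor-family protein, rose by 0.63 (edgeR adjusted p = 2.58e-05), TRAF1, a receptor adaptor, by 0.51 (3.79e-04), NFKB2 by 0.35 (6.22e-04) and NFKBIA, the main cytoplasmic inhibitor, by 0.35 (5.2e-04). RELA, the transactivating subunit, lay at 108 ± 11.7 CPM in MOCK and 105 ± 6.87 in RRM2_OE (log2 fold change -0.04, adjusted p = 0.815), and TNFAIP2 at a log2 fold change of 0.22 (adjusted p = 0.0531). Several of these genes are themselves NF-kB targets, and the protein and its activity were not measured.

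Of 10 tested enzymes known to modify chemokines or their receptors (proteases and the tyrosine sulfotransferases TPST1 and TPST2), 1 was higher and 3 were lower, and with the replicate block 4 were higher and 3 lower. The shares of all genes tested were 7.41% higher and 5.42% lower, and 15.1% and 14.0% with the block. DPP4, which removes the first residues of several chemokines, had a log2 fold change of 0.44 (edgeR adjusted p = 6.96e-04). The neutrophil serine proteases PRTN3, ELANE and CTSG fell by 1.20, 1.06 and 0.50 on the log2 scale (edgeR adjusted p = 8.68e-06, 1.14e-06 and 1.1e-04). PRTN3 went from 2395 ± 262 to 1043 ± 109 CPM. MMP9 and CTSS lay at 0.15 (adjusted p = 0.553) and 0.11 (adjusted p = 0.153).

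Marker genes of other cell types were read beside these values. The counts below stand beside 7.41% called higher and 5.42% called lower among all genes tested. The summed monocyte markers went from 2329 to 2541 CPM in MOCK to 2897 to 3102 CPM in RRM2_OE, with 5 of 9 tested higher and 0 lower. Most of this sum was LYZ, at 1705 ± 118 CPM in MOCK and 2197 ± 113 in RRM2_OE. T and NK cell markers summed to 47.5 to 52.5 CPM and 67.6 to 82.5 CPM, with 4 of 5 tested higher. Of these, CD3D lay at 17.5 ± 1.80 CPM in MOCK and 25.6 ± 0.973 in RRM2_OE, NKG7 at 25.6 ± 2.87 and 39.4 ± 6.77, GNLY at 3.00 ± 0.400 and 5.10 ± 0.895, and CD8A at 0.334 ± 0.0465 and 1.28 ± 0.291. The MOCK level of CD8A lay below the filter's level of 0.876 CPM. CD8A therefore passed only through the group in which it was higher, and its call carries that limit. CD3E, CD3G and CD2 were at or below 0.696 CPM in every library. B cell markers summed to 11.8 to 15.1 and 15.1 to 18.7 CPM (1 of 4 tested higher), and megakaryocyte markers to 373 to 391 and 414 to 434 CPM (3 higher and 1 lower of 7, with GP1BB at 0). Eosinophil and mast cell markers summed to 1227 to 1311 and 1435 to 1515 CPM (4 higher and 1 lower of 9), and erythroid markers to 798 to 1088 and 637 to 820 CPM (0 higher and 3 lower of 9). Fibroblast and epithelial markers summed to 38.8 to 44.8 and 42.8 to 47.4 CPM (1 of 3 tested higher). The part of these shifts in the chemokine values was not tested.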

How the data were processed

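Poly(A)-selected RNA was sequenced in 8 libraries with a stranded kit, per the labels' protocols. Tools listed in the submitters' processing notes are HTSeq 0.11.2, TopHat2 and bcl2fastq 2.18.0.12, with the build hg19 (GRCh37). Neither the annotation nor the strand setting is given in the sources used here. The authors deposited whole-number read counts per Ensembl gene and a table of RPKM values, which recomputation from the deposited counts and exon lengths matched within a relative deviation of 2.42e-07. Symbols came by gene ID from a table of current names (32562 genes) and GENCODE 29 (299), and 1757 IDs stayed unnamed. Coordinates are those deposited. Promoters are RefSeq windows of GRCh38.p14, matched by symbol.

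The test was edgeR 4.0.16 (R 4.3.3) over the 15286 genes that filterByExpr kept, with TMM factors, a robust quasi-likelihood test without covariates and Benjamini-Hochberg adjustment at 0.05. The script was tested on simulated data. CPM refers to TMM-scaled library sizes. Totals of 10994255 to 11686152 counts per library set the counting precision, and floors cover counting error only. Same-numbered libraries of the groups correlated at 0.25, 0.23, 0.22 and 0.23 in their deviations from the group means. Libraries of like parity correlated at 0.22 to 0.29 and of unlike parity at -0.28 to -0.21. Same-numbered libraries thus stood within the range of like parity, and no label pairs replicates of the groups. The replicate number was also fitted as a block, beside a term for odd and even numbers.

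Members and gene lists were chosen with earlier results of these data known. Of 146 list entries 144 were matched. A tested member is not reported here, and the counts include it. The other 27 tested members are named, with per-library values for those called or with a mean of at least 20 CPM. From the pathway lists, up to 4 called genes with the largest change and up to 2 others with the highest mean are named. Other genes, CXCL2, CXCL3, CCL8 and CCL17 in per-library detail, and the pairs of neighbours were chosen after their values were seen. Alternatives were DESeq2 1.42.0, RLE factors, limma 3.58.1 on log2(RPKM + 1), other filters, an adjusted p of 0.01, the block, an odd/even term and leaving out each library.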

Additional observations from a re-analysis of the deposited data

How the results depend on the processing

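The count of 13 members called higher was 13 with DESeq2, RLE factors, limma on log2(RPKM + 1) and a filter of 1 CPM in 4 libraries, 12 without a filter, 22 with the replicate block, 22 with the odd/even term and 8 at an adjusted p of 0.01. It was 10 to 16 when 1 library was left out. Of all genes tested, 7.41% were called higher and 5.42% lower in the main fit, and 15.1% and 14.0% with the block. Such shares were not computed for the other fits, so the counts from those fits have no background beside them. Of the 13, 9 kept their call without any 1 library (CCL1, CCL24, CCRL2, CXCL1, CXCL16, CXCL5, CXCL8, CXCR2 and CXCR4), and CCL22, CCL7, CCR7 and CXCR5 did not. Without a filter CCL22, CCR7 and CXCR4 lost theirs, while CX3CR1 gained one, as did CXCL10, which the filter otherwise removes. The count of lower members was 0 in each of these fits. For the signalling genes, 4 higher and 1 lower, the counts were 7 and 5 with the replicate block and with the odd/even term, 2 and 0 at an adjusted p of 0.01, and 3 to 5 and 0 to 1 without 1 library; lower counts were 0 with limma and 2 without a filter. The cause was not tested. Signs turned for 2 uncalled genes when 1 library was left out: ACKR4 (range -0.0624 to 0.0979) to -0.0362, -0.0131 and -0.0045 without MOCK replicates 2, 3 and 4 and to -0.0624 and -0.0616 without RRM2_OE replicates 1 and 3, and CCL17 (range -0.0825 to 0.0211) to 0.0039 without MOCK replicate 1 and to 0.0194 and 0.0211 without RRM2_OE replicates 2 and 4. Leaving out 1 library, an alternative added after the data were seen, gave differences in the log2 ratio of neighbours of -0.11 to 0.28 for CXCL1 over CXCL5, 0.01 to 0.26 for CXCL3 over CXCL2 and -0.72 to -0.31 for CCL7 over CCL8. Depth limits the 25 members below the filter. Of these, ACKR1, ACKR2, CCR6 and CCR10 also have spans that overlap another gene on the same strand. How reads shared with those genes were counted is not given, so their counts are uncertain.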

Other observations

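Genes related to chemokines in function or name, but outside the CCL, CXCL and receptor symbols, were higher in 6 of 15 tested cases and lower in 0, with a median log2 fold change of 0.19, and with the replicate block in 10 and 0. For all genes tested the shares were 7.41% and 5.42%, and 15.1% and 14.0% with the block. PPBP, a platelet CXC ligand of the ELR type that lies in the chromosome 4 cluster, rose from 4.72 ± 0.778 to 8.85 ± 0.729 CPM (SD, n = 4; log2 fold change 0.91, edgeR adjusted p = 6.51e-04). PF4, the other platelet CXC ligand, stayed at or below 0.348 CPM in every library. GPR183, a receptor for oxysterols that guides B cells and dendritic cells, rose from 95.1 ± 3.49 to 132 ± 4.63 CPM (log2 fold change 0.47, adjusted p = 4.35e-05). GPR35, an orphan receptor proposed to bind CXCL17, and CKLF, a chemokine-like factor, had log2 fold changes of 0.53 (adjusted p = 0.0248) and 0.42 (adjusted p = 0.048). CD74 and MIF, a receptor and its ligand, lay at 0.17 (adjusted p = 0.625) and -0.05 (adjusted p = 0.562).

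The 56 sets of 4 values (28 tested members in 2 groups) were searched for a library standing apart from the other 3 by Dixon's criterion, and 0 were found.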
